A study of Homo sapiens with 6 samples.

Results

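The circadian clock genes described here are PER1, PER2, PER3, CRY1, CRY2, CLOCK, NPAS2, DBP, BHLHE40 and BHLHE41. They were taken by symbol from the authors' deposited table, which lists all 10 of them, each on 1 row, among 25287 genes. The table comes from RNA sequencing of total RNA of NCI-H1299, an established human lung cancer cell line with the label lung adenocarcinoma. The extract protocol speaks of RIP-seq libraries, from RNA bound to a protein, although the molecule is given as total RNA and the series type as expression profiling. If RNA had been pulled down, the values would not be levels in the cell, and the files do not settle this. The 6 libraries form 2 groups of 3, shControl with a control short hairpin RNA and shALDH18A1 with a hairpin against ALDH18A1, the gene of the proline synthesis enzyme P5CS. The series text calls the control puro. Both groups grew in RPMI1640 medium with fetal bovine serum, and the labels give no drug, no synchronising step and no hour of harvest. They also do not state how many hairpins were used or whether each library had its own culture, so the spread behind the p-values may be technical.

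The clock of mammalian cells is a loop of transcription and repression. CLOCK, or its paralog NPAS2, pairs with BMAL1 and activates genes through E-boxes, short DNA elements with the core CACGTG. Among those genes are the PER and CRY genes, whose proteins return to the nucleus and repress the CLOCK and BMAL1 pair, and BHLHE40 and BHLHE41, whose proteins (DEC1 and DEC2) bind E-boxes themselves and repress. DBP, another E-box target, is a factor that activates genes through a second element, the D-box. NR1D1 and NR1D2 (the REV-ERB receptors) repress BMAL1, and RORA activates it. In cultured lines that were not synchronised, single cells run out of phase, and a bulk library averages over them. Fewer cells that express a gene and less of its RNA per cell cannot be told apart in such a library.

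Most of the PER, CRY and BHLHE repressor genes lay lower in one group than in the other, while NPAS2 and DBP lay higher there. In the authors' deposited table, PER2, PER3, CRY1, CRY2, BHLHE40 and BHLHE41 had a negative log2 fold change with an adjusted p under 0.05 (DESeq2, adjusted over all genes). By the authors' deposited table, NPAS2 and DBP were called on the positive side, while PER1 and CLOCK did not pass. The 6 negative and 2 positive calls among 10 genes stand beside 21.5% and 20.9% of all genes on these sides, and the 8 calls together beside 42.4%. A log2 fold change of -1 or lower was reached by 5 of the 10 by the authors' deposited table, beside 7.06% of all genes called that low. The median over the 10 was -1.14, and over all genes 0.03. The 10 genes were chosen with results of these data known, so these shares and medians are a description and no test.

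Which group the fold change has as its numerator is missing from the authors' headers, so sides are given here and no group is assigned to them. The targeted gene does not settle it, since ALDH18A1 had a log2 fold change of -0.08 (SE 0.07, adjusted p of 0.471) by the authors' deposited table and -0.19 (adjusted p of 0.0227) once totals of both groups were set equal. At a mean count of 2661, its 95% interval by the authors' deposited table ran from -0.22 to 0.07. These values thus show no strong loss of ALDH18A1 RNA in either group, and whether its protein was depleted was not tested. Per gene there is a single fold change with its standard error (SE) and a single mean of normalized counts over libraries, so library values, their overlap between groups and library depth cannot be shown. How often genes passed depended on their count: at mean counts of 1000 to 10000, which hold 3 of the 10 clock genes, 51.04% of genes passed on the negative and 31.8% on the positive side. At 100 to 1000, with 5 of them, the shares were 30.0% and 35.0%, and at 10 to 100, with the other 2, they were 10.2% and 16.5%. The share called at -1 or lower varied less over these bands, from 8.31% to 10.7%. Of epithelial and lung markers in the authors' deposited table, the keratins KRT8 and KRT18 (mean counts 18965 and 14244) were abundant. EPCAM (41.4), CDH1 (24.2), KRT7 (16.9), KRT19 (5.77) and SFTPB (4.49) were low. The mesenchymal markers VIM (24591) and CDH2 (3947) were abundant. NKX2-1, NAPSA and SFTPC were not analysed here. Markers of other cells had mean counts of 12.8 (PTPRC, leukocytes), 95.8 (COL1A1, fibroblasts) and 116 (PECAM1, endothelium), and PECAM1 lay at 2.53 (SE 0.28, adjusted p of 3.92e-18) by the authors' deposited table. The part of this in the clock gene values was not tested.

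**Figure D1:**
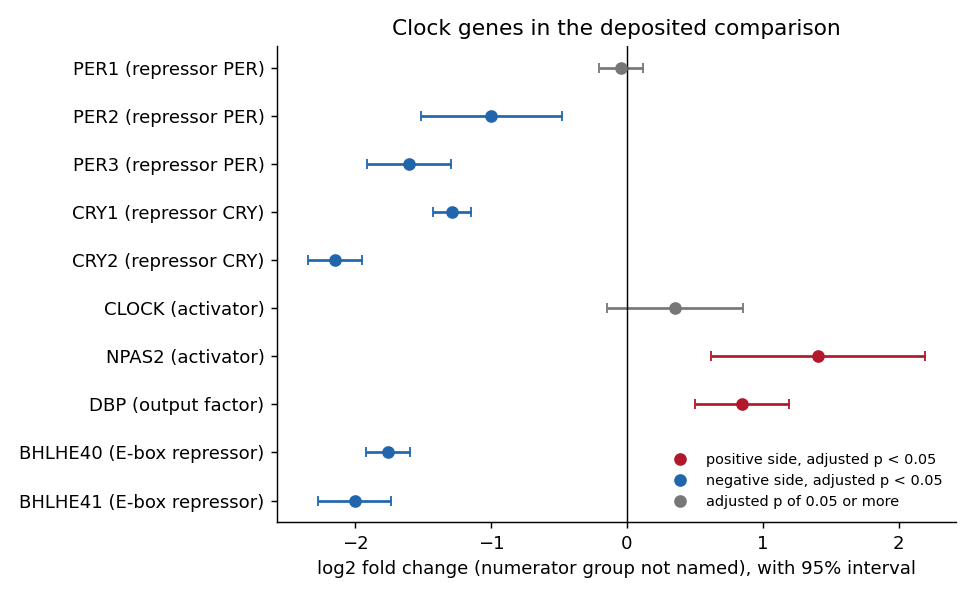
Log2 fold change of the 10 clock genes in the authors' deposited table (x axis, points) with 95% intervals (bars), ordered by role; the numerator group is not named in the headers. The 6 blue repressor genes lie between -2.15 and -0.998, NPAS2 and DBP (red) lie at 1.41 and 0.85, and the intervals of PER1 and CLOCK (grey) include 0.

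The promoters show which of these genes carry the E-box core beside a RefSeq start of transcription. RefSeq windows (GRCh38.p14) from 250 bases before to 50 bases after the start were given for all 10 genes, in 13 windows because PER3, CRY2 and CLOCK have 2 starts each. The palindrome CACGTG was found in PER1, BHLHE40 and BHLHE41, 3 of 10 genes, and in 8.77% of the 27305 genes of the promoter table. In windows cut to 150 bases before the start it was in 1 of the 10, BHLHE41, and in 6.75% of all genes. These 3 windows are shown because they share the core while their fold changes differ, with CACGTG in capitals.
PER1 (chr17:8152355-8152654, minus strand): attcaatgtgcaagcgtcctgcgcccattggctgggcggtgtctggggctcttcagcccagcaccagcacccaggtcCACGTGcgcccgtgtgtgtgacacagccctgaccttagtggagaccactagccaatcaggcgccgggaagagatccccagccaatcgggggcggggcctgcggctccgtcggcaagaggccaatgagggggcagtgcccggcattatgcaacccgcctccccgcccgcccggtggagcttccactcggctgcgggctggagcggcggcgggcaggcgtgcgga
BHLHE40 (chr3:4979187-4979486, plus strand): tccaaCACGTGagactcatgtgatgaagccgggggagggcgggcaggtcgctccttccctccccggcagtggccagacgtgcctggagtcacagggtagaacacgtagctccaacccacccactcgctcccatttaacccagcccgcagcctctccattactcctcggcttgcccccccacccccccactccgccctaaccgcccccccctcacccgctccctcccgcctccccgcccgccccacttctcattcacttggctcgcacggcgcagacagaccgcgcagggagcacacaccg
BHLHE41 (chr12:26124988-26125287, minus strand): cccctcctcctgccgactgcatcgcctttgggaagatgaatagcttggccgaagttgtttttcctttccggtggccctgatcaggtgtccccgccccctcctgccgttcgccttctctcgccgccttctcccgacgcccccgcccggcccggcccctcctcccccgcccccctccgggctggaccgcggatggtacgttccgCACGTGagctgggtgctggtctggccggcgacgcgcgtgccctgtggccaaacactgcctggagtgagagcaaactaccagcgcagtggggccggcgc
The core begins 173 bases before the start in PER1, 245 in BHLHE40 and 48 in BHLHE41. BHLHE40 and BHLHE41 were called on the negative side and PER1 was not called, so windows with the same core stood beside different values.

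A related hexamer, CACGTT on either strand, and the D-box cores TTATGTAA and TTACGTAA, also on either strand, were found in other members. CACGTT was in PER2, CRY1, CRY2 and CLOCK, 4 of 10 genes, against 6.44% of all genes in the promoter table, and it was chosen after the windows had been seen. A D-box core was in PER2 and PER3, 2 of 10 genes, against 1.27%. The windows of PER2, CRY1 and CRY2 are shown for the hexamer, with matches in capitals. That of CLOCK, which did not pass, holds the hexamer too and is not printed.
PER2 (chr2:238288561-238288860, minus strand): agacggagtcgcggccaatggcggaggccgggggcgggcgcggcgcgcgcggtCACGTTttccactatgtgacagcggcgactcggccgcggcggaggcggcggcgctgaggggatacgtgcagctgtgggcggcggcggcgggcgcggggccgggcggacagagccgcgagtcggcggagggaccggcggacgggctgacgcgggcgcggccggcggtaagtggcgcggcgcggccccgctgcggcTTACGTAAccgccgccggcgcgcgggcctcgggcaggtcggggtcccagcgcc
CRY1 (chr12:107093500-107093799, minus strand): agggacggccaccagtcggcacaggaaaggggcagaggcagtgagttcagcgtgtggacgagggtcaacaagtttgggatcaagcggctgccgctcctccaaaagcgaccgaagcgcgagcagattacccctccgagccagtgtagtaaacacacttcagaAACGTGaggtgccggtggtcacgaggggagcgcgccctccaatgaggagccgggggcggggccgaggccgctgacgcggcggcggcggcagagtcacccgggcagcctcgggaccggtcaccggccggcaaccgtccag
CRY2, the downstream of its 2 starts (chr11:45847225-45847524, plus strand): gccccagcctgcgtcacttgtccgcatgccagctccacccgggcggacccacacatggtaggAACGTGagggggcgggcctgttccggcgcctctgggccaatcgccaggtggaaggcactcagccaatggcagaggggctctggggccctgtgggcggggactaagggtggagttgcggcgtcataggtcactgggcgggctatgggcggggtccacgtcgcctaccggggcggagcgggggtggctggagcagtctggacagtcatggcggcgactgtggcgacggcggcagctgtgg
The hexamer begins 197 bases before the start in PER2 and reads on the opposite strand 89 bases before it in CRY1 and 188 in CRY2. In PER2 the letters TTACGTAA begin 3 bases before the start and run across it. None of these motifs was found in the windows of NPAS2 and DBP, the 2 genes on the positive side, nor in the upstream windows of CRY2 and CLOCK. A match of letters is a description of the window, and binding was not measured.

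The 3 period genes, whose proteins form the repressing complex with the cryptochromes, differed among themselves. PER1 (chromosome 17, 8140472 to 8156506, GRCh38) had a mean normalized count of 2670 and a log2 fold change of -0.05 (SE 0.08, adjusted p of 0.723) by the authors' deposited table. Its 95% interval ran from -0.21 to 0.11, which is narrow enough to leave out changes of the size seen in PER2 and PER3. PER2 (chromosome 2, 238244038 to 238290102) lay at -0.998 (SE 0.26, adjusted p of 0.000534) at a mean count of 90.3 by the authors' deposited table. PER3 (chromosome 1, 7784320 to 7845177) lay at -1.61 (SE 0.16, adjusted p of 2.82e-23) at a mean count of 384 by the authors' deposited table. Its level in the group on the low side was thus 32.8% of that in the other. PER2 and PER3 lay below PER1 by 0.95 (95% interval of the difference 0.41 to 1.495) and 1.56 (1.21 to 1.91) on the log2 scale. PER3 lay below PER2 by 0.61, with an interval of 0.005 to 1.21 that ends close to 0. These intervals use both SEs and no correlation between the genes, and no p is given because the genes were chosen with results known.

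Both cryptochrome genes, which encode the stronger repressors of the CLOCK and BMAL1 pair, passed on the negative side. CRY1 (chromosome 12, 106991364 to 107093829) had a mean count of 2363 and a log2 fold change of -1.29 (SE 0.07, adjusted p of 2.34e-70) by the authors' deposited table. CRY2 (chromosome 11, 45847118 to 45883248) had a mean count of 904 and the lowest value of the 10 genes, -2.15 (SE 0.10, adjusted p of 1.85e-98), in the authors' deposited table. The CRY2 level on the low side was 22.5% of the other, a 4.44-fold difference (95% interval of the fold 3.87 to 5.09), against 41.0% for CRY1. The difference between the paralogs was 0.86 on the log2 scale (95% interval 0.62 to 1.11). Of 5435 genes with negative calls by the authors' deposited table, 367 had a lower log2 fold change than CRY2 and 1100 a lower one than CRY1.

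BHLHE40 and BHLHE41, the paired E-box repressors, lay close to each other. BHLHE40 (chromosome 3, 4979116 to 4985323), which hypoxia and many other stimuli also induce, had a mean count of 2079 and a log2 fold change of -1.76 (SE 0.08, adjusted p of 5.86e-99) by the authors' deposited table. BHLHE41 (chromosome 12, 26120026 to 26125127) had a mean count of 504 and lay at -2.004 (SE 0.14, adjusted p of 1.34e-46) by the authors' deposited table. Their levels on the low side were 29.6% and 24.9% of the other. The difference between them was 0.25 on the log2 scale, with a 95% interval of -0.07 to 0.56. That interval includes 0 and also a difference of 0.5 log2 units, and with a correlation of 0.5 between the estimates it ran from 0.01 to 0.48.

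The activator genes CLOCK, NPAS2 and DBP were lower in count and less precise than the repressor genes other than PER2. CLOCK (chromosome 4, 55427903 to 55547138), which encodes the partner of BMAL1, lay at 0.35 (SE 0.26, adjusted p of 0.289) at a mean count of 191 by the authors' deposited table. Its 95% interval, from -0.15 to 0.85, includes 0 and 0.5 and leaves out -1 and 1. NPAS2 (chromosome 2, 100820152 to 100996829), which can replace CLOCK, had the lowest count of the 10 genes, 47.2, and lay at 1.41 (SE 0.40, adjusted p of 0.00141) by the authors' deposited table. The fold was 2.65 with a 95% interval of 1.54 to 4.57. NPAS2 lay above CLOCK by 1.05 on the log2 scale, with an interval of the difference (CLOCK minus NPAS2) from -1.98 to -0.12. DBP (chromosome 19, 48630030 to 48637438), the D-box activator, lay at 0.85 (SE 0.18, adjusted p of 7.28e-06) at a mean count of 208 by the authors' deposited table, a 1.80-fold difference (95% interval 1.41 to 2.29).

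**Figure D2:**
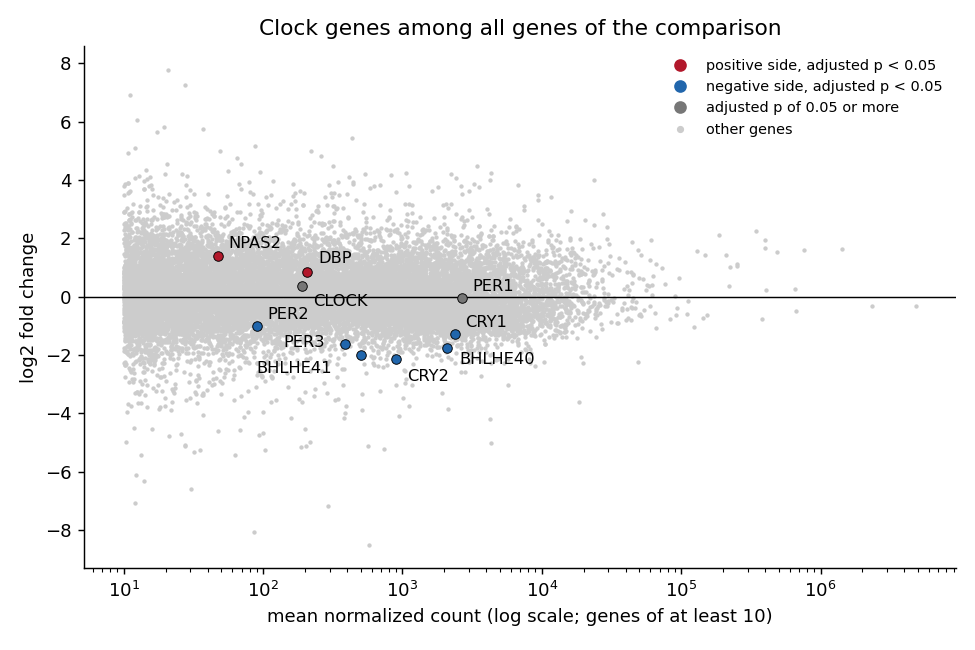
Log2 fold change (y axis) against mean normalized count (x axis, log scale) in the authors' deposited table, for genes whose mean count was 10 or more, with the 10 clock genes marked. The repressor genes on the negative side span mean counts from 90.3 (PER2) to 2363 (CRY1), while PER1, with the highest mean count of the 10 before correction for length (2670), lies at -0.05.

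Per kilobase of exon the 10 genes spanned a 143-fold range. Exon length here is the union over all annotated transcripts, which can exceed that of the transcripts expressed. BHLHE40 had the highest mean normalized count per kilobase (542), followed by CRY1 (467), PER1 (381), CRY2 (146) and BHLHE41 (128), from the counts of the authors' deposited table and exon lengths of GENCODE release 29. PER3 (47.4), DBP (31.7), CLOCK (16.3), PER2 (13.1) and NPAS2 (3.78) followed on the same scale of the authors' deposited table. The repressors BHLHE40, CRY1 and PER1 were thus far more abundant as RNA than CLOCK and NPAS2. No spread over libraries is available for these levels, so neighbours such as CRY2 and BHLHE41, or CLOCK and PER2, cannot be ranked against it. With equal group sizes, mean and fold change imply a level in each group. From the authors' deposited table these were 836 and 247 per kilobase for BHLHE40, 662 and 271 for CRY1 and 238 and 53.7 for CRY2, with the denominator group first. For PER1 they were 387 and 375 per kilobase on the basis of the authors' deposited table. By these values PER1 lay below BHLHE40 and CRY1 in the denominator group and above both in the numerator group. The implied levels carry no error, and their order across genes can depend on the exon lengths used.

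**Figure D3:**
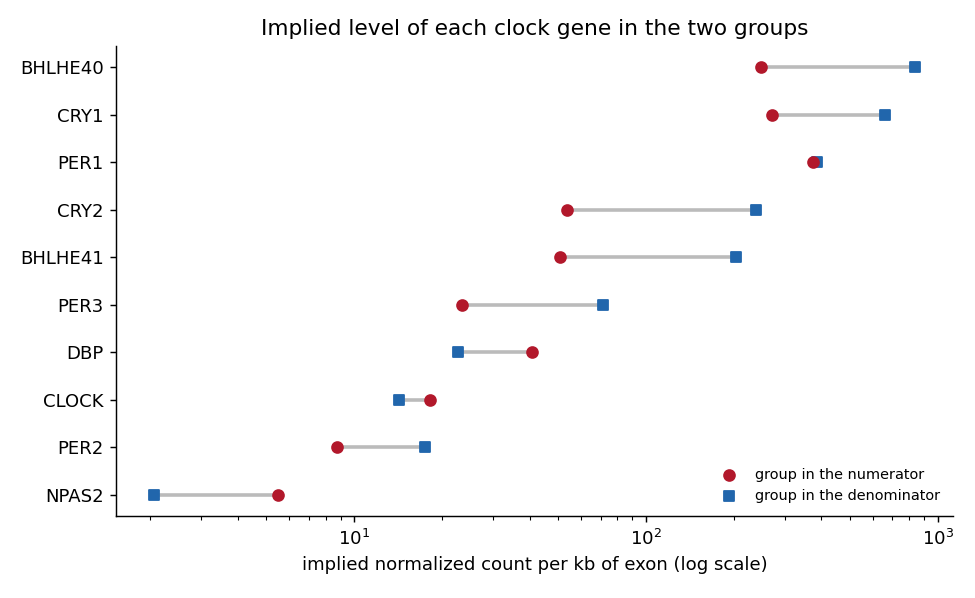
Implied normalized count per kilobase of exon (x axis, log scale) of each clock gene in the group of the numerator (circles) and of the denominator (squares), computed from mean and fold change of the authors' deposited table with equal group sizes and without error bars, since library values were not analysed here. BHLHE40 moves from 836 to 247 and CRY1 from 662 to 271, while PER1 stays at 387 and 375.

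Several clock genes overlap a neighbour in gene span, introns included. The use of strand in counting is not given in the sources. Listed genes overlap 8 of the 10. CLOCK overlaps TMEM165 on the opposite strand over 25495 bases, and TMEM165, at a mean count of 2955, lay at 1.21 (SE 0.07, adjusted p of 2.33e-61) by the authors' deposited table. DBP overlaps SPHK2 on the opposite strand over 688 bases, and SPHK2 (mean count 477) lay at -0.47 (SE 0.14, adjusted p of 0.00345) by the authors' deposited table. Overlap of exons was not computed, so how far the values of CLOCK and DBP are affected is not known. The overlapping genes of PER1, PER2, CRY1, NPAS2, BHLHE40 and BHLHE41 had mean counts of 69.7 or lower in the authors' deposited table, of which the largest against its partner was AC012485.1 (69.7) beside PER2 (90.3). Its log2 fold change by the authors' deposited table was 0.29 (adjusted p of 0.514), on the other side from PER2. The neighbour of PER1, AC129492.3 (mean count 16.5), overlaps it on the same strand over 5691 bases of gene span. Strand cannot separate their reads, and how shared reads were assigned is not given.

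The rest of the loop was called about as often on either side as all genes. By the authors' deposited table, 3 of 10 further loop genes had positive calls, 2 had negative calls and 5 had none, around a median log2 fold change of 0.10, where all genes had 20.9% positive and 21.5% negative calls. BMAL1, the partner of CLOCK, lay at 0.63 (SE 0.17, adjusted p of 0.000573) by the authors' deposited table, while its paralog BMAL2 lay at -1.90 (SE 0.10, adjusted p of 1.71e-72). The REV-ERB genes, which encode repressors of BMAL1, also stood on opposite sides, NR1D1 at 0.71 (SE 0.16, adjusted p of 5.35e-05) and NR1D2 at -1.19 (SE 0.10, adjusted p of 1.995e-33) by the authors' deposited table. NR1D2 had the higher mean count by the authors' deposited table, 1343 against 305, not corrected for length. RORA, an activator of BMAL1, lay at 1.32 (SE 0.24, adjusted p of 2.21e-07) by the authors' deposited table. The relatives of DBP did not pass in the authors' deposited table: TEF lay at 0.04 (SE 0.18) and HLF at -0.77 (SE 0.83) with a mean count of only 8.55. NFIL3, which represses through D-boxes, lay at 0.15 (SE 0.12, adjusted p of 0.347) by the authors' deposited table.

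The listed genes for regulators of clock proteins all passed on the negative side, at smaller sizes. In the authors' deposited table this held for 10 of the 10 listed of 11, with log2 fold changes from -1.08 to -0.43 and a median of -0.83. The casein kinase genes CSNK1D (-1.01, SE 0.12) and CSNK1E (-0.90, SE 0.09), whose products phosphorylate PER proteins, were among them in the authors' deposited table. So were BTRC (-0.83, SE 0.10) and FBXW11 (-0.95, SE 0.06) of the authors' deposited table, which encode the F-box proteins that mark phosphorylated PER for breakdown. SIRT1, a deacetylase that acts on clock proteins, had the lowest value (-1.08, SE 0.09), and PRKAA1, a subunit of the kinase AMPK that phosphorylates CRY1, lay at -0.84 (SE 0.07) by the authors' deposited table. GSK3B (-0.58), TIMELESS (-0.61), USP7 (-0.53) and CSNK2A1 (-0.43) had SEs from 0.05 to 0.08 in the authors' deposited table. These genes have mean counts of 722 to 6513 by the authors' deposited table, and negative calls made up 21.5% of all genes and 51.04% of those with mean counts of 1000 to 10000. CSNK2B was not analysed here.

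Listed inputs to clock gene transcription, whichever way they act on it, had small fold changes. By the authors' deposited table, 5 of 9 listed genes had negative calls, 0 had positive calls and 4 had none, around a median of -0.28. Negative calls made up 21.5% of all genes, and 30.0% and 51.04% in the count bands from 100 to 1000 and from 1000 to 10000 that hold these 9. The negative calls were EP300 (-0.53, SE 0.15) and CREBBP (-0.34, SE 0.08), which encode acetyltransferases that act with CREB, the coactivator gene CRTC1 (-0.33, SE 0.10), the kinase gene SIK2 (-0.25, SE 0.10) and CRTC2 by the authors' deposited table. The CREB coactivator gene CRTC2 had the lowest value (-0.61, SE 0.06, adjusted p of 2.93e-20) and the glucocorticoid receptor gene NR3C1 lay at -0.09 (SE 0.07, adjusted p of 0.38) by the authors' deposited table. With totals of both groups set equal, 8 of the 9 passed on the negative side. Of 8 known E-box outputs, 4 had negative calls and 1 a positive call by the authors' deposited table, beside 21.5% and 20.9% of all genes, and 5 of these 8 genes belong to the loop list as well. The lowest was USP2, a deubiquitinase gene with a strong daily rhythm in many tissues, at -2.11 (SE 0.12, adjusted p of 1.14e-70) by the authors' deposited table. WEE1, the kinase gene that restrains entry into mitosis, lay at -1.65 (SE 0.08, adjusted p of 1.64e-93), and NAMPT, of the NAD salvage pathway, at -0.64 (SE 0.07, adjusted p of 1.64e-17) by the authors' deposited table. USP2 and WEE1 thus had values in the range of CRY2, BHLHE41 and PER3, on the same side, while DBP and NR1D1, which are E-box targets too, lay on the other.

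**Figure D4:**
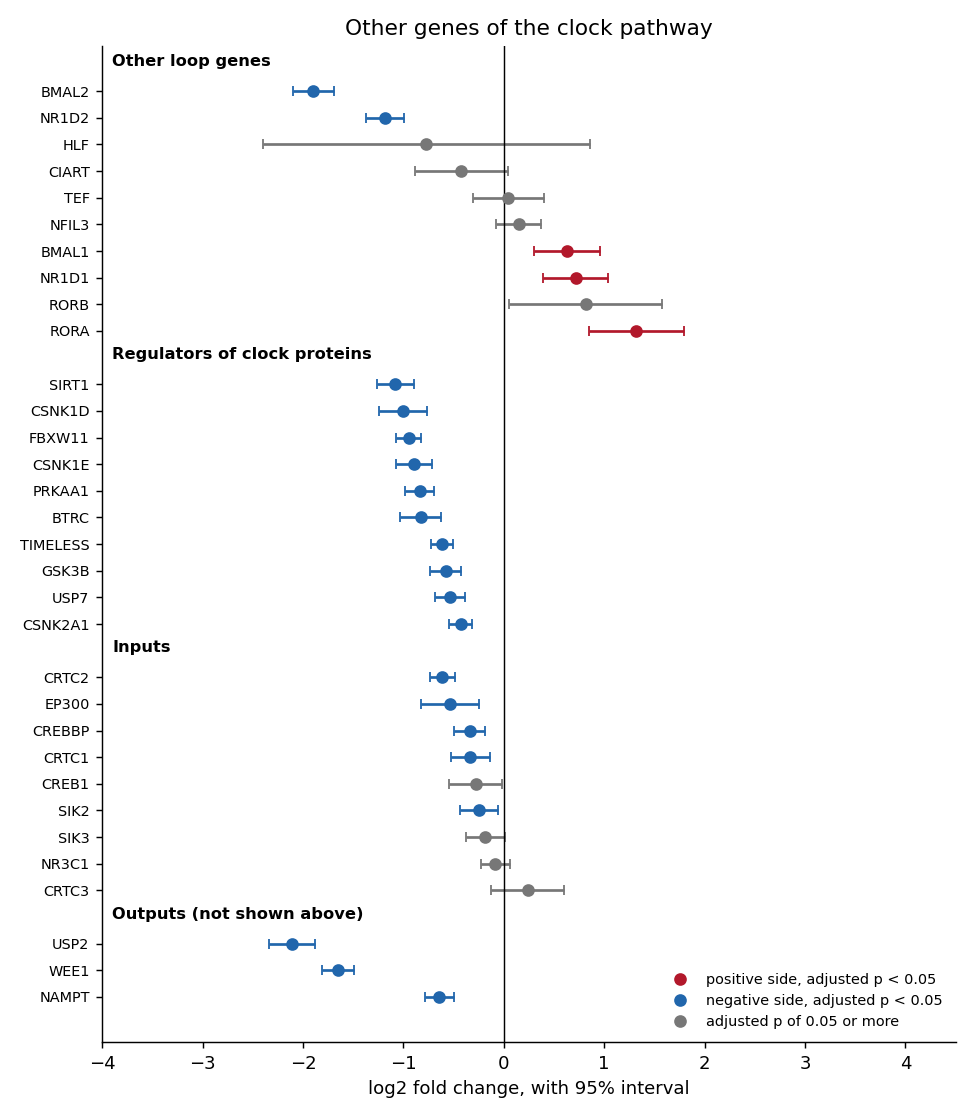
Log2 fold change (x axis, points) with 95% intervals (bars) of the other listed clock pathway genes in the authors' deposited table, in 4 lists. All 10 regulators lie below 0, while the loop genes run from BMAL2 at -1.90 to RORA at 1.32.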

How the data were processed

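Per the submitters' processing notes, the tools were fastp 0.23.2, STAR 2.7.10a, featureCounts and DESeq2, and the genome build was hg38, with no settings given in the sources used here. The extract protocol in the labels names a TruSeq kit and calls the libraries RIP-seq. One table was used, with 25289 rows, of which 25287 remained after identical rows were merged. Its mean normalized count is a signal that the authors scaled and averaged over libraries, per the file headers. The fold change and SE were taken as log2 values, the scale of DESeq2, since the authors' headers give no base. The Wald score, p-value and adjusted p-value are those the authors deposited, and the latter equals a Benjamini-Hochberg adjustment over all genes within 1.39e-15. An edgeR fit was planned for counts per library, which were not analysed here, so the comparison that the authors deposited is reported and no gene was tested anew.

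Intervals of 95% are the value plus or minus 1.96 SE. The precision follows the count: the median SE was 0.513 at mean counts of 10 to 100 and 0.079 at 1000 to 10000. Overlaps of gene spans and exon lengths came from GENCODE release 29 (GRCh38). The members and lists were chosen with earlier results of these data known. All members are named, with ALDH18A1 and, of the other lists, members past the threshold plus 7 loop genes named in any case. NR3C1, which did not pass, and the genes that overlap members were picked with their values in view. Some genes of these lists are not reported here. Alternatives were other thresholds, a minimum mean count of 10 and 3 shifts of the fold changes, with p-values and adjustment computed again. The adjustment and the shifts were tested on simulated data. Python 3.11.15, numpy 2.4.6, pandas 2.3.3, scipy 1.17.1 and matplotlib 3.10.9 were used.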

Additional observations from a re-analysis of the deposited data

How the results depend on the processing

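Of the 7 alternatives run, only the 3 shifts can change the sign of a log2 fold change. All 10 clock genes kept their sign under these shifts. Under each of the 7 alternatives, 8 of the 10 kept their side of the threshold. The exceptions were PER2 (-0.998) and DBP (0.85), which fall short of an absolute log2 fold change of 1. Setting totals of both groups equal moved all values by -0.12, or by 0.05 without mitochondrial transcripts, and PER1 then lay at -0.16 (adjusted p = 0.0968) and at -0.00013. With a least absolute log2 fold change of 1, positive calls became 1 for the clock genes, 1 for the other loop genes and 0 for the outputs, and negative calls became 2 for the regulators and 0 for the inputs. With equal totals the inputs had 8 negative calls in place of 5. ALDH18A1 passed with equal totals only (-0.19). In windows that begin 150 bases before the start, CACGTG was in 1 member promoter (6.75% of all genes) in place of 3 (8.77%). The cause of these changes is the alternative's own construction. No paired analysis was possible because values per library were not analysed here, and for the same reason no library could be left out and no other test of counts was run. Genes of low count, such as NPAS2 and PER2, have wide intervals.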

Other observations

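Families related to the clock proteins were looked at after the data had been seen, as values only. Of 9 listed bHLH-PAS relatives of CLOCK, a family of paired DNA-binding factors, 2 had negative calls by the authors' deposited table, 1 had a positive call and 6 had none, beside 21.5% negative and 20.9% positive calls over all genes. SIM2 lay at -1.62 (SE 0.18, adjusted p of 1.13e-18) and ARNT, the partner of several members of the family, at -0.60 (SE 0.09, adjusted p of 1.54e-10) by the authors' deposited table. PASD1, a germ cell and cancer antigen that represses the CLOCK and BMAL1 pair, lay at 0.64 (SE 0.07, adjusted p of 5.73e-17) at a mean count of 2676 by the authors' deposited table, well above the count of 191 for CLOCK, both without correction for length. The casein kinase relatives CSNK1A1 (0.24, SE 0.06), CSNK1G2 (0.76, SE 0.07) and CSNK1G3 (0.98, SE 0.10) had positive calls by the authors' deposited table, opposite to CSNK1D and CSNK1E. CSNK1G1 (-0.31, SE 0.09) had a negative call, on the side of CSNK1D and CSNK1E. Positive and negative calls made up 20.9% and 21.5% of all genes, and 31.8% and 51.04% at mean counts of 1000 to 10000. At 100 to 1000, the band of CSNK1G3, they made up 35.0% and 30.0%.

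Across the genes of the authors' deposited table with a RefSeq promoter window, those with CACGTG (1603 genes) had a median log2 fold change of -0.07, with 35.1% called negative and 24.0% positive. By the authors' deposited table, the 12506 without it had a median of 0.01, with 27.4% negative and 25.3% positive. Median mean counts were 718 with the hexamer and 302 without it, and negative calls were more frequent at higher counts. The part of this in the difference was not tested.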
